A study of Mus musculus with 8 samples.

Results

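The genes described here are 9 transcription factors that set the effector fate of regulatory T cells (Tregs), namely Batf, Irf4, Prdm1, Maf, Nfil3, Id2, Bach2, Bcl6 and Myb. They were chosen by gene symbol and were found, all 9, among the 55487 genes of each deposited table. Tregs are CD4 T cells that express Foxp3 and restrain other immune cells. On activation they leave a resting, lymph node homing state and become effector Tregs, which enter tissues and make suppressive molecules. Batf, a basic leucine zipper protein that pairs with Jun proteins, and Irf4, an interferon regulatory factor that binds DNA together with Batf, are known to start this step, and Prdm1 (the repressor Blimp-1) to complete it. Bach2 is a repressor that competes for AP-1 sites and is known to hold Tregs in the resting state. Bcl6 is a repressor that opposes Prdm1 in lymphocytes.

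The question behind the study was how Tregs that lack SRC-3, the nuclear receptor coactivator encoded by Ncoa3, differ from control Tregs in their transcripts. Splenic Tregs of C57BL/6 mice were profiled by RNA sequencing with the SMART-Seq v4 kit, which copies whole transcripts from little RNA. The 8 libraries formed 4 groups of 2, which were SRC-3KO Tregs of tumor-bearing mice, control Tregs of tumor-bearing mice, SRC-3KO Tregs of mice without a tumor, and control Tregs of mice without a tumor. The cells were sorted for GFP, but the source label of control replicate 1 without a tumor does not mention GFP and its title calls it WT, while the titles of the other 3 controls name a Foxp3 Cre. The titles of both SRC-3KO libraries without a tumor, and of no others, carry the word Tam1. The meaning of Tam1, the promoter behind GFP, the kind of tumor, the age of the mice and the deleted part of Ncoa3 are not stated in the sources used here. Nothing in the labels says that replicates came from separate animals, so p-values measure only the spread between these samples, which may be technical.

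The tumor libraries were deposited as FPKM (fragments scaled for transcript length and depth), with an unknown depth, and the others as read counts, with 27452922 and 31075452 counts in SRC-3KO and 25251597 and 24159217 in control libraries. Ncoa3 stood at 47.5 and 27.7 FPKM in the tumor libraries labelled SRC-3KO, against 37.7 and 45.4 FPKM in control, so its level did not separate those groups. Without a tumor its level was 39.6 and 26.7 CPM (counts scaled for depth) in SRC-3KO libraries and 132 and 54.1 CPM in the controls. The log2 fold change of Ncoa3 with a tumor was -0.18 (SE 0.3), so its level could not check the label there. Genotypes are given below as the libraries are labelled. Control replicate 1 without a tumor stood apart, with a correlation of log2 values over genes of 0.693 to 0.704 with the other 3 libraries, which correlated at 0.934 to 0.972 with each other. It held 231 CPM of Foxp3, against 10.2 to 21.1 CPM in the other 3. Control replicate 2 with a tumor held 1393 FPKM of 8 summed macrophage and monocyte markers and 3988 FPKM of 7 neutrophil markers, against at most 50.4 and 4.72 FPKM in the other 3 tumor libraries.

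Promoters are shown for the 3 tested factors whose levels differed most between the tumor groups, because motifs of factors in the same set can be searched in them. RefSeq promoter windows were matched for 8 of the 9 genes, and Maf had none. Each is the 250 bases before the RefSeq start on GRCm38.p6, the assembly behind mm10, written 5′ to 3′ on the strand of the gene. Lower case is sequence without a match and capitals mark a motif match. The window of Batf is chr12:85686470-85686719 on the plus strand, that of Prdm1 is chr10:44458749-44458998 on the minus strand and that of Bach2 is chr4:32417185-32417434 on the plus strand. The windows of Prdm1 and Bach2 lie inside the spans of their GENCODE genes, so they belong to internal starts, and that of Batf spans the GENCODE start of the gene.
Batf: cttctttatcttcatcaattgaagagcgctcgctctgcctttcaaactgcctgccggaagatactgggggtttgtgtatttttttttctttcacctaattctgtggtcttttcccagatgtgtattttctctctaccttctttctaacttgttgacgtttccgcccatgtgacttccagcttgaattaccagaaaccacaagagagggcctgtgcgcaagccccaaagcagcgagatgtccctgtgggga
Prdm1: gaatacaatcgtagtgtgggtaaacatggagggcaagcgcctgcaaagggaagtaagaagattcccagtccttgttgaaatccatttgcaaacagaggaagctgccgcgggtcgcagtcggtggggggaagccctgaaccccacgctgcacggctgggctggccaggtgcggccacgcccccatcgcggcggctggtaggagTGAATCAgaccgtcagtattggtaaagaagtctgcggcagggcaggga
Bach2: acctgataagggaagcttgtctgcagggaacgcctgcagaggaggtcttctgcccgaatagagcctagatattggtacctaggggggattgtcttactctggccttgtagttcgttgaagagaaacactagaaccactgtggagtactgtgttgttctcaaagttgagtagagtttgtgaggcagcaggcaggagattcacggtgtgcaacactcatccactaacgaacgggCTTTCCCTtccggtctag

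Motifs were searched as letters on both strands. TGANTCA, with any middle base, was a loose form of the AP-1 site, which Batf binds with Jun partners and Bach2 with small Maf partners. A pair of GAAA repeats with 2 bases between them stood for interferon regulatory factors and AGNGAAAG for Blimp-1. The last pair of motifs can overlap each other. The Prdm1 window held 1 match to the AP-1 letters, TGAATCA, with its first base at -48 from the start. Its middle base is A, and forms with a fixed middle base were not searched. The Bach2 window held 1 match to the Blimp-1 letters, in the reverse complement form CTTTCCCT, with its first base at -18. The Batf window and the windows of Irf4, Nfil3, Id2, Bcl6 and Myb held none of these letters. Of all 32851 promoter windows of this length, 6.75% held the AP-1 letters, 2.98% the interferon regulatory factor letters and 7.3% the Blimp-1 letters. A match describes letters only, and binding was not measured.

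In tumor-bearing mice, Batf and Prdm1 stood at 1.93 and 1.92 times the control mean in the libraries labelled SRC-3KO, and Bach2 at 0.262 times the control mean. None of the 3 passed limma's test after adjustment over all 12859 genes tested. Of the 8 factors tested there, 4 were higher in each SRC-3KO library than in either control (Batf, Irf4, Prdm1 and Nfil3) and 1, Bach2, was lower in both. Such separation is common in these libraries, since 27.5% of all tested genes were higher and 24.9% lower in the same way. At an unadjusted p under 0.05, limma found 2 of the 8 higher, against 10.4% of all genes, and 1 lower, against 6.07%. At an adjusted p under 0.05 it found 0 of the 8, against 0.0156% of all genes higher and 0.0933% lower. The median log2 fold change, SRC-3KO over control, was 0.33 over the 8 factors and -0.02 over all genes tested. In bulk samples, fewer cells of a type and less RNA per cell cannot be told apart.

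**Figure D1:**
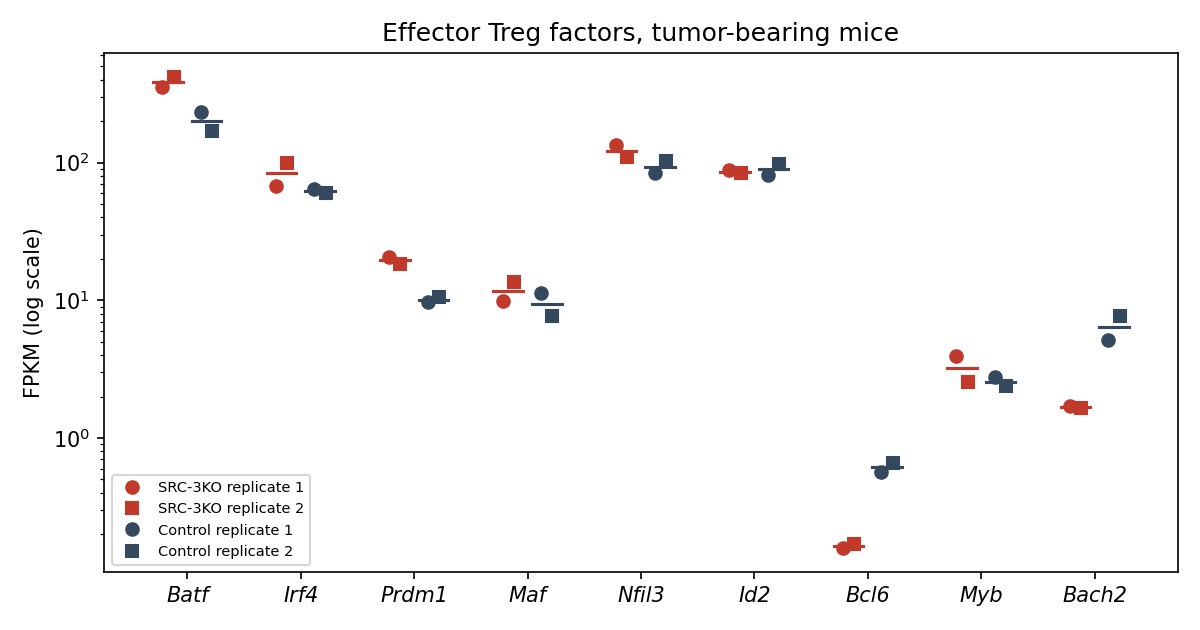
FPKM (log scale) of the 9 factors in the 4 tumor libraries. Circles are replicate 1, squares replicate 2 and bars the mean of each group. Batf, Irf4, Prdm1 and Nfil3 stand higher in both SRC-3KO libraries, Bach2 and Bcl6 stand lower, and Maf, Id2 and Myb overlap.

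Batf (ENSMUSG00000034266, mm10 chr12:85686669-85709087, plus strand) stood at 352 and 421 FPKM in SRC-3KO replicates 1 and 2, against 231 and 169 FPKM in control replicates 1 and 2. The lowest SRC-3KO library thus lay above the highest control. The log2 fold change was 0.96 (SE 0.26, limma adjusted p = 0.209). Its level per length was the highest of the 9 factors in both groups, above the 98th percentile of tested genes in SRC-3KO (98.8 and 99.1) and at 96.8 and 96.4 in control.

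Irf4 (ENSMUSG00000021356, chr13:30749226-30766976, plus strand) stood at 67.1 and 99.7 FPKM in SRC-3KO and at 64.2 and 59.8 FPKM in control. The groups did not overlap, but SRC-3KO replicate 1 lay close to control replicate 1. The log2 fold change was 0.40 (SE 0.25, limma adjusted p = 0.454), and it was 0.11 when SRC-3KO replicate 2 was left out and 0.68 when SRC-3KO replicate 1 was left out.

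Prdm1 (ENSMUSG00000038151, chr10:44437177-44528501, minus strand), known as the factor of late effector differentiation that drives Il10 in Tregs, stood at 20.6 and 18.3 FPKM in SRC-3KO, against 9.75 and 10.5 FPKM in control. Replicates lay close together, and the groups were far apart relative to that spread. The log2 fold change was 0.88 (SE 0.19, limma adjusted p = 0.164). Its percentile among tested genes was 70.9 and 69 in SRC-3KO and 52.9 and 55.2 in control.

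Maf, Nfil3 and Id2 act in tissue and effector Tregs, Maf on Il10 and on helper-like fates, Nfil3 as a basic leucine zipper repressor, and Id2 as an inhibitor that binds E proteins such as Tcf3. Maf (ENSMUSG00000055435, chr8:115682942-115707794, minus strand) stood at 9.92 and 13.5 FPKM in SRC-3KO and 11.2 and 7.71 FPKM in control, and Nfil3 (ENSMUSG00000056749, chr13:52967209-52981073, minus strand) at 134 and 109 FPKM in SRC-3KO and 84.6 and 102 FPKM in control. Id2 (ENSMUSG00000020644, chr12:25093799-25097140, minus strand) stood at 87.6 and 84.1 FPKM in SRC-3KO and 81.1 and 97.5 FPKM in control. Maf and Id2 overlapped between the groups, while Nfil3 was separate by a gap between 109 and 102 FPKM. The log2 fold changes were 0.29 (SE 0.27) for Maf, 0.38 (SE 0.22) for Nfil3 and -0.05 (SE 0.19) for Id2, with limma adjusted p of 0.61, 0.423 and 0.91. The sign for Id2 turned to 0.19 when each library was scaled to an equal sum.

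Bach2 (ENSMUSG00000040270, chr4:32238804-32586108, plus strand) stood at 1.72 and 1.64 FPKM in SRC-3KO, against 5.17 and 7.65 FPKM in control, the largest ratio of the 8 factors tested. Both SRC-3KO libraries lay well below both controls, at 12.9 and 11.6 on the percentile scale of tested genes, against 38.4 and 47.5 in control. The log2 fold change was -1.45 (SE 0.27, limma adjusted p = 0.144), on log2(FPKM + 1), which understates changes of genes this low. The genes Bach2it1, Gm24371 and Bach2os overlap Bach2, and whether reads were assigned by strand is not stated in the sources used here. They were listed at no more than 0.686 FPKM in any tumor library, and the genes that overlap Maf, Bcl6 and Myb at no more than 0.216 FPKM.

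Bcl6 (ENSMUSG00000022508, chr16:23965052-23988852, minus strand) was the other repressor of effector fate at a lower level, at 0.158 and 0.169 FPKM in SRC-3KO and 0.564 and 0.659 FPKM in control. It stayed below the minimum of 1 FPKM in every tumor library and was not tested. Myb (ENSMUSG00000019982, chr10:21124935-21160984, minus strand), known to be needed for effector Treg differentiation, stood at 3.94 and 2.55 FPKM in SRC-3KO and 2.75 and 2.37 FPKM in control. Its groups overlapped, and its log2 fold change was 0.24 (SE 0.27, limma adjusted p = 0.673).

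Bach2 and Bcl6 are also expressed by B cells, and Prdm1, Irf4 and Xbp1 by plasma cells, and several markers of both cell types were lower in the SRC-3KO libraries. The summed level of 10 B cell markers was 252 and 213 FPKM in SRC-3KO, against 681 and 685 FPKM in control. Ighm made up most of these sums, at 239 and 201 FPKM in SRC-3KO and 646 and 657 FPKM in control. All 5 markers that were tested (of 10) were lower in both SRC-3KO libraries, against 24.9% of all genes. Cd79a, a part of the B cell receptor, fell by 2.96 on the log2 scale (limma adjusted p = 0.041), where 0.0933% of all genes passed as lower. Of the defining B cell genes, Pax5 was listed at no more than 0.0132 FPKM in any tumor library and Ebf1 at no more than 0.0352. The sum of 8 plasma cell markers was 264 and 255 FPKM in SRC-3KO and 1259 and 1957 FPKM in control, and Tnfrsf17 was at 0 in all 4 libraries. Of the 4 tested, Jchain, Mzb1 and Igkc fell, while Xbp1, which made up most of the SRC-3KO sums, stood at 241 and 213 FPKM in SRC-3KO and 216 and 264 FPKM in control (log2 fold change -0.07). Ighg1 and Igha were at 0 in control and at no more than 0.229 FPKM in SRC-3KO. The log2 fold changes of Jchain, Mzb1 and Igkc were -5.39, -3.91 and -5.34 (limma adjusted p = 0.0204, 0.0296 and 0.0296). They were 3 of the 4 tested, against the same 0.0933% of all genes. These 3 calls and that of Cd79a ended with no filter (limma adjusted p = 0.278 each) and with libraries scaled to an equal sum (0.118 each), and those of Jchain, Mzb1 (0.111 each) and Cd79a (0.0632) also with a pseudocount of 0.1. The part of these cells in the levels of Bach2, Bcl6, Irf4 and Prdm1 was not tested.

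The sum of 8 macrophage and monocyte markers was 12.4 and 10.3 FPKM in SRC-3KO and 50.4 and 1393 FPKM in control. Most of the sum in control replicate 1 was Apoe, at 39.8 FPKM there, 43.0 FPKM in control replicate 2 and 1.39 and 1.48 FPKM in SRC-3KO. Its log2 fold change was -4.12 (limma adjusted p = 0.0117, and 0.278 with no filter). Cd68 stood at 9.51 and 6.87 FPKM in SRC-3KO and 7.62 and 139 FPKM in control, and overlapped. Fcgr1 was at 0 in every tumor library but control replicate 2. The sum of 7 neutrophil markers was 1.69 and 0.18 FPKM in SRC-3KO and 4.72 and 3988 FPKM in control, where Ly6g and Camp were at 0 outside control replicate 2. For 8 CD8 T and NK cell markers it was 59.1 and 38.3 FPKM in SRC-3KO and 161 and 115 FPKM in control. Most of that was Nkg7, at 50.4 and 28.1 FPKM in SRC-3KO and 151 and 92.3 FPKM in control. Of the 4 tested, 3 were lower and 1, Cd8b1, higher without overlap, against 24.9% and 27.5% of all genes. For 6 dendritic cell markers the sum was 5.13 and 6.97 FPKM in SRC-3KO and 3.24 and 10.5 FPKM in control. The part of all these cells was not tested either. Without control replicate 2, the library with the myeloid markers, Batf rose by 0.74 on the log2 scale (limma adjusted p = 0.0414), Prdm1 rose by 0.93 (limma adjusted p = 0.0333) and Bach2 was lower at -1.20 (limma adjusted p = 0.0355). These are 3 of the 8 factors, where 20.1% of all tested genes passed in either direction.

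Without control replicate 1 instead, Batf rose by 1.18 on the log2 scale (limma adjusted p = 0.0383) and Bach2 was lower at -1.69 (limma adjusted p = 0.0391), which are 2 of the 8 factors, where 3.68% of all genes passed in either direction. Prdm1, at 0.83, did not pass there (limma adjusted p = 0.0719). None of the 8 passed when an SRC-3KO library was left out, with limma adjusted p of at least 0.489. In each of these fits 1 group has a single library, which is assumed to vary like the other group. Standard errors for Batf were 0.55 and 0.54 without an SRC-3KO library and 0.15 in each fit without a control library. The fits were thus not alike in what they could detect.

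**Figure D2:**
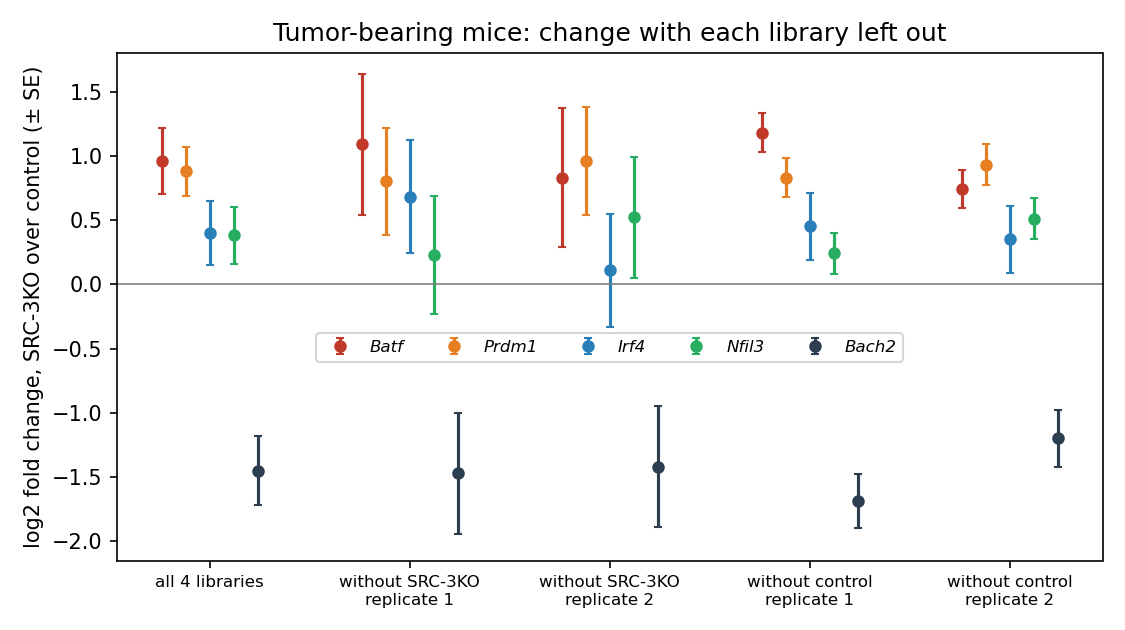
log2 fold change (SRC-3KO over control) and standard error for 5 factors in the tumor libraries, with all 4 libraries and with each left out in turn. Batf lies between 0.74 and 1.18, Prdm1 between 0.80 and 0.96 and Bach2 between -1.69 and -1.20, with narrower errors when a control library is left out.

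Ratios within a library do not depend on scaling between libraries. The 3 given here were chosen after the values were seen, from genes already separate in opposite directions, so their separation is fixed by that choice. Prdm1 over Bach2 in FPKM was 12 and 11.2 in SRC-3KO, against 1.88 and 1.38 in control. Batf over Bach2 was 204 and 257 in SRC-3KO, against 44.6 and 22.1 in control. Prdm1 over Bcl6 was 130 and 108 in SRC-3KO, against 17.3 and 16 in control.

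Per length, the order of the factors in SRC-3KO tumor libraries, by mean FPKM, was Batf, Nfil3, Id2, Irf4, Prdm1, Maf, Myb, Bach2 and Bcl6. Neighbours were separate in their ranges except Id2 and Irf4. In control the order was the same down to Maf, followed by Bach2, Myb and Bcl6, and there Nfil3 overlapped Id2 and Prdm1 overlapped Maf. Bach2 was thus the 8th of 9 in SRC-3KO, below Myb, and the 7th in control, above Myb.

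In mice without a tumor, no factor passed the test, and Batf, Prdm1, Maf, Nfil3, Id2 and Myb had a log2 fold change of the opposite sign to that with a tumor. The change was smaller than its standard error for Batf and Nfil3 without a tumor, for Id2 with a tumor and for Myb in both states. How many of all genes changed sign was not counted. Without a tumor, Prdm1 was lower in each SRC-3KO library than in either control, and Id2 was higher in both. That is 1 of 9 in each direction, where 23.8% of all 14860 tested genes were higher and 16.9% lower in this way. By edgeR's quasi-likelihood test 0 of 9 passed at an adjusted p under 0.05 (0.0% of all genes did), and 0 of 9 had an unadjusted p under 0.05, against 0.882% of all genes as higher and 2.29% as lower. DESeq2 also called 0 of 9, and of all 14860 genes it called 18 higher and 69 lower. The median log2 fold change of the 9 was -0.93, against -0.02 over all genes. That fit includes control replicate 1, the library that stood apart, and changes without it are given below.

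**Figure D3:**
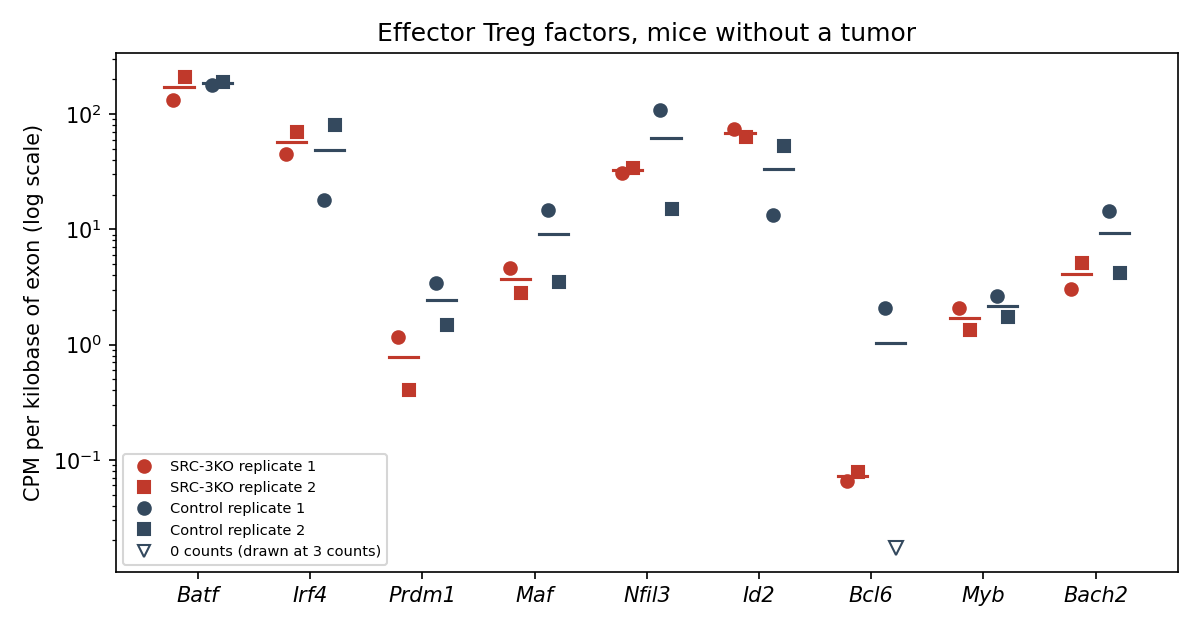
Levels of the 9 factors in the 4 libraries without a tumor, as CPM per kilobase of exon (log scale). Circles are replicate 1, squares replicate 2, bars the mean, and the open triangle marks the control library with 0 Bcl6 counts. The control libraries lie far apart for Irf4, Nfil3, Maf, Id2 and Bach2.

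Batf stood at 185 and 296 CPM in SRC-3KO libraries and 252 and 266 CPM in the controls, and the groups overlapped. Irf4 stood at 220 and 343 CPM in SRC-3KO libraries and 87.6 and 393 CPM in the controls, with both SRC-3KO libraries between the controls. Their log2 fold changes were -0.11 (SE 0.81) for Batf and 0.23 (SE 1.0) for Irf4, with edgeR adjusted p of 0.974 and 0.954. The sign of both turned when the trend with GC content and length was removed, to 0.06 for Batf and -0.17 for Irf4.

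Prdm1 stood at 6.53 and 2.25 CPM in SRC-3KO, from 180 and 64 counts, against 18.9 and 8.28 CPM in the controls, from 476 and 217 counts. The groups did not overlap, although control replicate 2 lay close to SRC-3KO replicate 1, and the log2 fold change was -1.63 (SE 1.03, edgeR adjusted p = 0.91). Per length, Prdm1 was the 8th of the 9 factors in SRC-3KO and the 7th in control without a tumor, whereas it was the 5th in both groups with a tumor. The states were deposited in separate tables and units, so levels between them were not tested.

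Id2 stood at 180 and 154 CPM in SRC-3KO libraries and 32.7 and 128 CPM in the controls, with control replicate 1 lowest (log2 fold change 1.05, SE 0.94, edgeR adjusted p = 0.91). Maf stood at 38.2 and 23.1 CPM in SRC-3KO libraries and 121 and 28.5 CPM in the controls (log2 fold change -1.29, SE 0.95). Nfil3 stood at 62.2 and 69.1 CPM in SRC-3KO libraries and 220 and 30.6 CPM in the controls (log2 fold change -0.93, SE 1.07). For Maf and Nfil3 control replicate 1 was the highest library and control replicate 2 lay within or below the SRC-3KO range. Both had an edgeR adjusted p of 0.91.

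Bach2 stood at 30.3 and 50.6 CPM in SRC-3KO libraries and 144 and 41.5 CPM in the controls (log2 fold change -1.20, SE 0.91, edgeR adjusted p = 0.91). Control replicate 2 lay between the SRC-3KO libraries. The overlapping Bach2it1, on the same strand, had 97 and 131 counts in SRC-3KO and 49 and 128 in control, beside 835 and 1440 counts of Bach2 in SRC-3KO and 3628 and 1088 in control. Bcl6 had 12 and 15 counts in SRC-3KO and 351 and 0 in control, where 0 counts allow up to 0.114 CPM (3 counts in that library, counting error only). Its fitted log2 fold change of -3.84 (SE 2.52, edgeR adjusted p = 0.91) rests on control replicate 1. Myb stood at 18.6 and 11.9 CPM in SRC-3KO libraries and 23.4 and 15.5 CPM in the controls, and overlapped (log2 fold change -0.35, SE 0.79, edgeR adjusted p = 0.928).

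Per kilobase of exon, the order by mean CPM in SRC-3KO libraries was Batf, Id2, Irf4, Nfil3, Bach2, Maf, Myb, Prdm1 and Bcl6, where Id2 overlapped Irf4 and Bach2 overlapped Maf. In the controls it was Batf, Nfil3, Irf4, Id2, Bach2, Maf, Prdm1, Myb and Bcl6, and there only Batf was separate from Nfil3 and Maf from Prdm1.

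These values depended on which control library was used. With control replicate 1 as the single control, 6 of the 9 passed edgeR's test, namely Irf4 and Id2 as higher (1.65 and 2.34) and Maf, Nfil3, Bach2 and Bcl6 as lower (-1.99, -1.77, -1.86 and -4.87), with adjusted p of 0.00324 to 0.0173. In that fit 43.8% of all genes passed in either direction. With control replicate 2 as the single control, none of the 9 passed (0.00628% of all genes did), and the log2 fold change was -0.59 for Irf4, 0.28 for Id2, 0.01 for Maf, 1.0 for Nfil3 and -0.15 for Bach2. The 8 CD8 T and NK cell markers summed to 555 and 409 CPM in SRC-3KO libraries and to 1376 and 118 CPM in control replicates 1 and 2, and 1324 CPM of the sum in control replicate 1 was Nkg7. The 8 plasma cell markers summed to 973 and 513 CPM in SRC-3KO libraries and to 89.6 and 1478 CPM in control replicates 1 and 2. The 7 neutrophil markers summed to 0.0363 and 0.0352 CPM in SRC-3KO libraries and to 0.0795 and 307 CPM in control replicates 1 and 2. The 10 B cell markers summed to 228 and 152 CPM in SRC-3KO and to 94.8 and 323 CPM in control. The part of these cells was not tested.

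The ratio of Prdm1 to Bach2 per length was 0.384 and 0.0792 in SRC-3KO and 0.234 and 0.355 in control without a tumor, so the groups overlapped. Batf over Bach2 was 43.3 and 41.3 in SRC-3KO and 12.4 and 45.3 in control, which also overlapped.

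The change between genotypes was then set against itself in both states, as the tumor log2 fold change minus that without a tumor. Prdm1 had a difference of 2.58 (SE 1.01, adjusted p = 0.571 from the limma and voom fits), being higher in both SRC-3KO libraries with a tumor and lower in both without. Of the 11674 genes tested in both states, 7.14% had this pattern of separation, and 4.02%, Prdm1 among them, an unadjusted p under 0.05. No gene passed at an adjusted p under 0.05 (0.0%). The other differences were 1.10 (SE 0.80) for Batf, -0.17 (SE 1.01) for Irf4, 1.27 (SE 0.98) for Maf and 0.70 (SE 1.10) for Nfil3. They were -1.41 (SE 0.94) for Id2, -0.46 (SE 0.93) for Bach2 and 0.59 (SE 0.81) for Myb. Bach2 had a log2 fold change below 0 in both states, and its difference between states was smaller than its standard error.

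**Figure D4:**
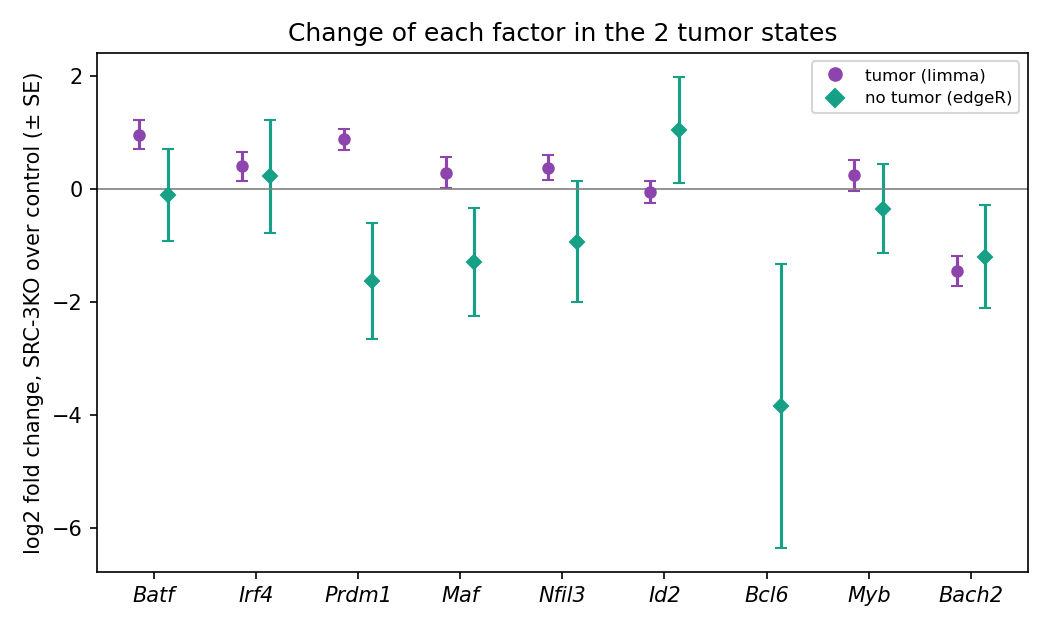
log2 fold change (SRC-3KO over control) and standard error for the 9 factors in tumor libraries (limma, circles) and libraries without a tumor (edgeR, diamonds). Standard errors are 0.19 to 0.27 with a tumor and 0.79 to 2.52 without, and Prdm1 lies at 0.88 with a tumor and -1.63 without. Bcl6 was not tested with a tumor.

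Around the 9 factors, 26 family members and binding partners were examined, of which 19 were tested in the tumor libraries. Of these, 6 were higher and 4 lower without overlap, against 27.5% and 24.9% of all genes, and the median log2 fold change was 0.16. limma called 0, with 4 higher and 3 lower at an unadjusted p under 0.05, against 10.4% and 6.07% of all genes. Bcor, a corepressor recruited by Bcl6, stood at 7.46 and 10.5 FPKM in SRC-3KO and 3.06 and 2.51 FPKM in control. Irf8, the interferon regulatory factor also abundant in B cells and myeloid cells, stood at 98.2 and 108 FPKM in SRC-3KO and 177 and 210 FPKM in control. Fosl2, an AP-1 protein, stood at 6.51 and 6.25 FPKM in SRC-3KO and 2.14 and 3.92 FPKM in control. These 3 were separate between groups, with log2 fold changes of 1.39, -0.90 and 0.91 and limma adjusted p of 0.146 to 0.244. Without a tumor the median of this list was -1.29. It includes control replicate 1, the library that stood apart, and was not computed without it.

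Among 14 tested of 15 other factors of effector and tissue Tregs, 9 were higher without overlap and 0 lower, against 27.5% and 24.9% of all genes, with a median log2 fold change of 0.49. limma called 0 of them, with 5 higher and 0 lower at an unadjusted p under 0.05, against 10.4% and 6.07% of all genes. Rora, a nuclear receptor of tissue Tregs, stood at 22.0 and 20.2 FPKM in SRC-3KO and 10.1 and 9.82 FPKM in control. Rbpj, the DNA-binding partner of Notch, stood at 55.7 and 43.0 FPKM in SRC-3KO and 20.9 and 24.9 FPKM in control. Ahr, the aryl hydrocarbon receptor, and Rel, an NF-kappaB subunit needed for effector Tregs, were separate and higher as well, with log2 fold changes of 0.83 and 0.64. Without a tumor the median of this list was -1.65, where 2 of 14 were higher and 6 lower without overlap, against 23.8% and 16.9% of all genes. That median includes control replicate 1, the library that stood apart, and was not computed without it. Runx3 stood at 98.2 CPM there, 6.1 CPM in control replicate 2 and 7.98 and 6.68 CPM in SRC-3KO. Gfi1 stood at 95.2, 16.8, and 10.4 and 18.3 CPM in the same order. Hif1a and Rel were the 2 that were higher.

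Of 22 target and effector genes tested in the tumor libraries, 11 were higher and 3 lower without overlap, against 27.5% and 24.9% of all genes, with a median log2 fold change of 0.42. limma called 0, with 9 higher and 0 lower at an unadjusted p under 0.05, against 10.4% and 6.07% of all genes. Areg, the growth factor amphiregulin made by tissue Tregs, stood at 11.9 and 12.8 FPKM in SRC-3KO and 2.57 and 2.88 FPKM in control (log2 fold change 1.84, limma adjusted p = 0.0978). Itgae, the integrin CD103, stood at 41.7 and 34.4 FPKM in SRC-3KO and 13.6 and 14.8 FPKM in control (1.36, limma adjusted p = 0.121). The IL-33 receptor gene Il1rl1 and Klrg1, a marker of terminal effector Tregs, had log2 fold changes of 2.34 and 1.20. Il10, a target of Prdm1 and Maf, stood at 16.9 and 25.5 FPKM in SRC-3KO and 21.8 and 22.6 FPKM in control, and overlapped. Without a tumor the median of this list was -0.01.

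Of 11 tested resting T cell genes (of 12), 1 was higher and 4 lower without overlap, against 27.5% and 24.9% of all genes, with a median log2 fold change of -0.34. limma called 0, with 0 higher and 2 lower at an unadjusted p under 0.05, against 10.4% and 6.07% of all genes. Ccr7, a chemokine receptor of lymph node homing, stood at 130 and 117 FPKM in SRC-3KO and 207 and 246 FPKM in control. Its log2 fold change was -0.86 (limma adjusted p = 0.183), while Lef1 was at -0.47 and Ets1 at 0.42. Ccr7 is also expressed by B cells, whose markers were lower as given above. Without a tumor the median of this list was -0.19.

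**Figure D5:**
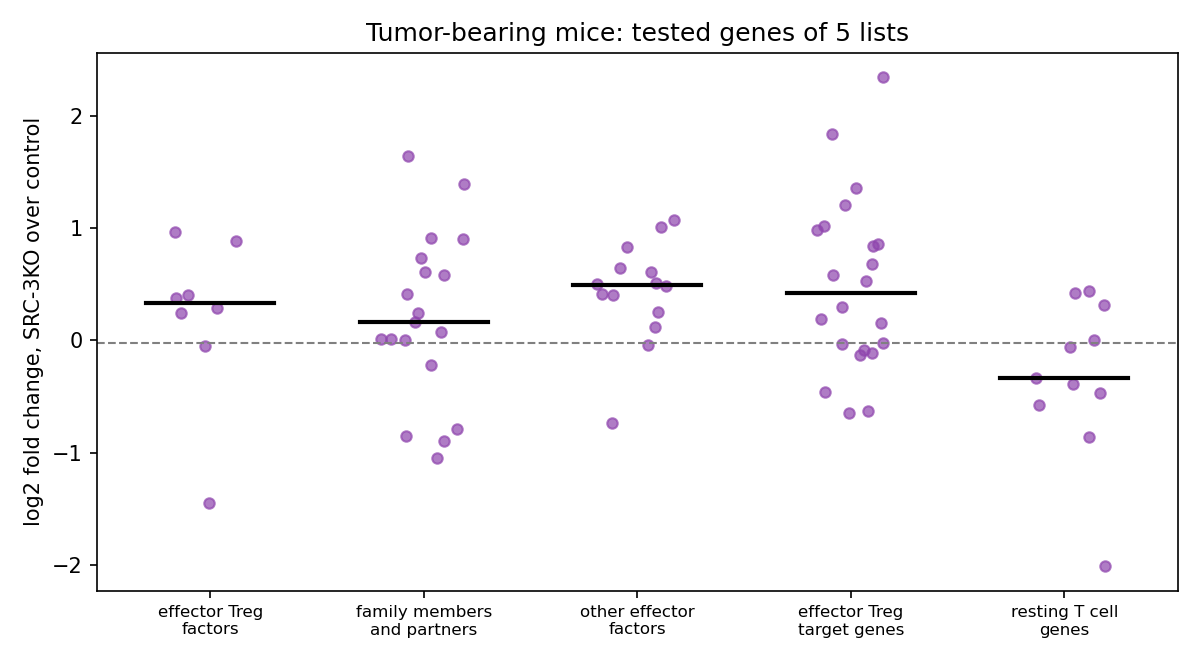
log2 fold change, SRC-3KO over control, of each tested gene of 5 lists in the tumor libraries, with the median of each list as a bar and the median of all genes, -0.02, as a dashed line. List medians run between 0.49 for the other effector factors and -0.34 for the resting T cell genes.

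The Treg label was checked with 8 identity markers, none of which was at 0 in any library. They summed to 2615 and 2574 FPKM in SRC-3KO and 2225 and 1660 FPKM in control with a tumor, and to 5798 and 5780 CPM in SRC-3KO libraries and 3316 and 4185 CPM in the controls without. With a tumor 7 of the 8 were higher in both SRC-3KO libraries, against 27.5% of all genes, among them Ikzf2, the factor Helios (log2 fold change 1.37), Ikzf4 (1.24) and Il2ra, the IL-2 receptor (0.93), and limma called 0 of 8 (4 higher at an unadjusted p under 0.05, against 10.4% of all genes). Foxp3 itself stood at 20.1 and 28.8 FPKM in SRC-3KO and 18.4 and 14.7 FPKM in control. Without a tumor 4 of the 8 were higher and 2, Ikzf4 and Cd4, lower without overlap, against 23.8% and 16.9% of all genes. Foxp3 stood there at 21.1 and 10.2 CPM in SRC-3KO libraries and 231 and 20.5 CPM in the controls, and overlapped. With a tumor, the levels of Batf and Prdm1 thus lay higher in libraries in which most of the Treg markers were also higher. Without a tumor the marker sums were also higher in SRC-3KO, while Prdm1 was lower there and Batf overlapped. The part of Treg share in the levels of either gene was not tested.

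Over the 8 libraries, with values centred within each table, the genes whose pattern was most like that of Batf were Mdn1 (Pearson r = 0.986), Dpp8 (0.984) and Baz1a (0.961), of 11674 searched. For Bach2 they were Ppp3ca (0.986), Ube2c (0.97) and Cdca3 (0.959). These are descriptions of likeness over 8 points that share their library, depth and table.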

How the data were processed

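RNA of splenic Tregs was measured in 8 libraries. Per the submitters' processing notes, the authors used mm10 with FastQC, Trim Galore, STAR, featureCounts and edgeR, without versions. The deposited table for mice without a tumor holds raw read counts per gene, and the deposited table for tumor-bearing mice holds FPKM from StringTie, per the file headers. Each lists 55487 genes, and 55227 matched GENCODE vM21 by ID for positions, exon length and GC content. The annotation release and strand setting used by the authors are not stated in the sources used here.

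Counts were tested with edgeR 4.0.16 (R 4.3.3) after filterByExpr, TMM scaling (factors 0.916 to 1.09) and a quasi-likelihood fit with a common dispersion of 0.791. CPM uses TMM library sizes. FPKM values were tested with limma 3.58.1 and its intensity trend on log2(FPKM + 1). Genes needed a minimum of 1 FPKM in 2 or more libraries. The difference between states is the limma minus the voom log2 fold change, read against t with the smaller degrees of freedom. All p-values were adjusted by Benjamini-Hochberg over all genes tested with a threshold of 0.05. Depth is unknown for FPKM, and 0 counts allow up to 3 counts.

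The 9 factors and the lists were chosen with earlier results of these data known. Named genes are the 9 factors, up to 4 genes per other list with the smallest unadjusted p with a tumor, the 3 genes most like Batf and Bach2, and Ncoa3. Some genes chosen in this way are not reported here. Foxp3, Il10, Xbp1 and markers of single libraries were named after their values were seen. The alternatives tried were other scalings, DESeq2 1.42.0, limma-voom, no filter, a pseudocount of 0.1, a replicate block, removal of the GC and length trend, and leaving out each library. Promoter sequences are from RefSeq on GRCm38.p6.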

Additional observations from a re-analysis of the deposited data

Results flagged for a closer look

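Prdm1 differed between the states in direction. The SRC-3KO over control change with a tumor minus that without was 2.58 on the log2 scale (SE 1.01, adjusted p = 0.571 from the limma and voom fits). With a tumor both SRC-3KO libraries, at 20.6 and 18.3 FPKM, lay above both controls, at 9.75 and 10.5 FPKM. Without a tumor both SRC-3KO libraries, at 6.53 and 2.25 CPM, lay below both controls, at 18.9 and 8.28 CPM. It drew attention because both SRC-3KO libraries lay above the controls with a tumor and, in other samples and units, below them without. Of the 11674 genes tested in both states, 7.14% had this pattern of separation. The adjusted test of the difference was not passed. Leaving out each library gave 1.79 to 3.28, and the difference passed only without control replicate 2 of the mice without a tumor (3.22, adjusted p = 0.0433), a fit in which 2955 genes were called higher and 2763 lower.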

How the results depend on the processing

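With a tumor, 2 genes were called higher and 12 lower among all genes. The calls were 2 higher and 5 lower with a pseudocount of 0.1, 1 higher and 0 lower with no filter (3171 genes at an unadjusted p under 0.05), 2 higher and 2 lower when scaled to an equal sum, and 5 to 1015 higher and 25 to 1495 lower with each library left out. The numbers P1 and P2 in the labels are shared only as numbers (same-number correlation 0.0357). The replicate block gave 28 higher and 44 lower, and 104 higher and 103 lower with the GC and length trend removed as well. Among the 9 factors only Bach2 passed under a setting other than leaving out a library (-1.76, limma adjusted p = 0.0265 in that last fit), and not with the block alone (0.119) or the trend alone (0.105). That fit called 104 genes higher and 103 lower of the 12859 tested. Areg (0.00892), Itgae (0.04), Il1rl1 (0.00709), Klrg1 (0.0349) and Irf8 (0.0457) were among them, and Il1rl1 also passed with the block alone (0.0303). These genes had been picked from their lists for a small unadjusted p. The block pairs libraries by numbers that the labels do not tie to a shared animal or batch. Without a tumor, edgeR called 0 genes (472 at an unadjusted p under 0.05). DESeq2 called 18 higher and 69 lower, no filter gave 10 higher and 60 lower, and leaving out each library gave 0 to 3770 higher and 0 to 3664 lower. The difference between states called 0 genes (469 at an unadjusted p under 0.05), and 0 to 2955 higher and 0 to 2763 lower with each library left out.

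Signs turned for values that had not passed. Without a tumor these were Bcl6 (0.01 with limma-voom), and Batf (0.06) and Irf4 (-0.17) with the GC and length trend removed. With a tumor they were Id2 (0.19), Ncoa3 (0.05) and Xbp1 (0.17) when scaled to an equal sum, which moved the median of all genes to 0.21, and Id2 (0.17) and Myb (-0.01) with the GC and length trend removed, with or without the block. Leaving out each library without a tumor gave -0.46 to 0.26 for Batf, -0.59 to 1.65 for Irf4, -1.99 to 0.01 for Maf, -1.77 to 1.0 for Nfil3 and -4.87 to 6.70 for Bcl6. With a tumor it gave -0.18 to 0.08 for Id2, 0.00 to 0.47 for Myb and -0.56 to 0.19 for Ncoa3, and for 2 marker genes of other cells -0.22 to 0.07 (Xbp1) and -3.95 to 0.08 (Cd68). For the difference between states it gave -1.24 to 1.01 for Irf4, -0.62 to 2.14 for Nfil3 and -1.27 to 0.45 for Bach2. The cause was not tested. Batf, Prdm1 and Bach2 kept their direction with a tumor under every alternative run. The depth behind the FPKM values is unknown, and 2 libraries per group limit every test.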
